A study of Mus musculus with 9 samples.

Results

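The 6 transcripts named together as surface sialomucins and their partners were measured in the lining of the mouse aorta: Emcn, Podxl, Cd34, Cd164, Mcam and Mmrn2. They are 6 of the 30142 named genes on the array, and all 6 of the 6 passed the filter on dim genes that left 17039 tested genes. Each symbol had 1 transcript cluster, the array's unit for a gene or transcript. They were chosen by their measured differences between ACDiEKO and control on these same arrays, so the values below describe them and carry no test. The rule has no threshold.

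Sialomucins are cell surface proteins whose stalks carry dense O-linked sugars that end in sialic acid, which gives the luminal face of endothelium a negative charge. The sugars can repel blood cells or, when suitably decorated, hold leukocytes through selectins, and the cytoplasmic tails tie the membrane to actin through adaptor and ERM proteins. Endomucin (Emcn) is typical of capillary and venous endothelium, while podocalyxin (Podxl) and CD34 are close relatives of each other and endolyn (Cd164) is a sialomucin of endosomes and the cell surface. Mcam and Mmrn2 are not sialomucins: Mcam encodes CD146, an adhesion molecule of the immunoglobulin superfamily, and Mmrn2 encodes multimerin-2, a secreted EMILIN-family protein of the endothelial matrix.

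The series asked how losing 3 transcription factors, MEF2A, MEF2C and MEF2D, alters aortic endothelial RNA. The 5 ACDiEKO arrays came from Cdh5-CreERT2(+) mice in which Mef2a, Mef2c and Mef2d were all floxed (f/f), and the 4 control arrays from Cdh5-CreERT2(-) littermates, also f/f for all 3 genes. All mice were female and all received tamoxifen, as 5 daily injections at 10 weeks of age. Lysis reagent was flushed through the lumen of 1 thoracic aorta per array, and 5 ng of RNA was labelled for a Clariom D whole-transcriptome array. The harvest is given as 7 days after the first injection in one description and as 14 days in another, and which holds is not settled. The recombinase is driven by the endothelial gene Cdh5, and because controls carried none, an effect of the recombinase itself cannot be told apart from loss of the 3 factors. In these bulk samples, fewer cells of a type and less RNA per cell cannot be told apart either.

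The deposited values are log2 values that span 2.71 to 19.34, higher than a scanner's log2 range reaches, so differences are given in log2 units of those values and not as folds. Array medians were 5.99 to 6.03 in ACDiEKO and 6.03 to 6.11 in control. ACDiEKO replicates 1 and 2 were nearly the same array result, with a robust SD of their difference of 0.0719 against 0.269 to 0.398 for the 15 other pairs within a group. They were averaged and counted as 1 sample, so means below are over 4 ACDiEKO and 4 control samples. The floxed genes did not check the labels: Mef2a, Mef2c and Mef2d were higher in ACDiEKO, by 0.12, 0.06 and 0.23. For Mef2d the groups did not overlap, as for 22.5% of all tested genes. Whether the probes lie in the deleted exons is not given in the sources used here. Over the 14 endothelial markers measured, of which 2 were called higher and 4 lower, the mean level was 12.07 to 12.43 in ACDiEKO and 12.24 to 12.61 in control. Each p-value below sets a group difference against the spread between samples within a group. Each sample was 1 array of 1 aorta, apart from the average of ACDiEKO 1 and 2.

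Emcn and Mcam are the genes with the largest differences among the 6, and their upstream sequences are shown because they are unlike each other. RefSeq (build GRCm38.p6) supplied the 250 bases before the transcription start for 4 of the 6 genes, and Podxl and Mmrn2 were not matched. The Emcn sequence is chr3:137340828-137341077 on the plus strand, and capitals mark AGGAAG, the core recognised by ETS factors, read on either strand.
Emcn: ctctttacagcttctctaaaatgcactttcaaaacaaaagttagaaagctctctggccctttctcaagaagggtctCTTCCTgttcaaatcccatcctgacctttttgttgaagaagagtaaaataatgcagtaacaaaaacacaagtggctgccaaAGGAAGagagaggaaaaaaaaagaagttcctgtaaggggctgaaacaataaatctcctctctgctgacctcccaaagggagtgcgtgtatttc
The Mcam sequence is chr9:44134408-44134657 on the plus strand, and capitals mark GGGCGG, the GC box, read on either strand.
Mcam: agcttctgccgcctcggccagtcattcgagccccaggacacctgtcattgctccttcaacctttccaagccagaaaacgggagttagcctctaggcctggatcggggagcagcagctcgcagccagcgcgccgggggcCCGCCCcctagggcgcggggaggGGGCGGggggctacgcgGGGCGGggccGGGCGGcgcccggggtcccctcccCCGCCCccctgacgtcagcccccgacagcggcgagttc

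The Emcn sequence was 40.8% G and C, with 1 CpG, and 13.3% of the 32851 RefSeq promoters of that length had a lower share. The Mcam sequence was 73.6% G and C, with 25 CpGs, and 94.7% of promoters had a lower share. Over all promoters the median was 52.4%, with a median of 6 CpGs. Emcn held 2 matches of AGGAAG, which 29.5% of promoters hold at least once. Mcam held 5 matches of GGGCGG, which 32.7% of promoters hold, and no AGGAAG. Cd34 and Cd164 each held 1 match of AGGAAG. Cd164 was like Mcam in composition, at 71.6% with 33 CpGs and 4 matches of GGGCGG, while Cd34 was at 46.4% with 6 CpGs and no GGGCGG. None of the 4 windows held the MEF2 site or the CArG box, which 2.92% and 1.47% of promoters hold. None held CACCC, the letters searched for KLF factors, which 52% of promoters hold. A count of 0 matches says only that these letters are not in these windows.

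Emcn and Mcam were higher in the lumen lysates of ACDiEKO aortas, Podxl and Mmrn2 were lower, and Cd34 and Cd164 differed little. Samples of the 2 genotypes did not overlap for 4 of the 6 genes, and the same held for 22.5% of all tested genes.

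Emcn on the ACDiEKO arrays 1 to 5 was 14.87, 14.91, 14.91, 14.50 and 14.82, against 12.69, 10.76, 10.30 and 10.47 on control arrays 1 to 4. All 5 ACDiEKO arrays lay close together and above every control, and control 1 stood above the other controls. The means were 14.78 ± 0.19 in ACDiEKO and 11.06 ± 1.11 in control (SD, n = 4 and 4), a difference of 3.72. Only 0.0998% of tested genes had a larger difference in size.

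Emcn lay in the order of differences between Tagln at 3.82 and Myl9 at 3.68, both genes of the smooth muscle contractile apparatus. The tested named genes with the profile most like it over the 8 samples were Ctla2a, Glis3, Kpna2 and Acta2. Likeness was the root mean square difference of values centred on the control mean, and it was 0.544, 0.558, 0.565 and 0.567 for these 4. It includes the group difference, by which Emcn, Podxl and Mcam were chosen, so it is description only. Control 1 was 13.18 for Ctla2a and 10.30 for Kpna2, against 12.12 to 12.69 and 9.34 to 9.74 in the other controls. For Glis3 and Acta2 it was 8.74 and 16.11, against 7.48 to 8.07 and 13.14 to 14.33. For Emcn it was 12.69, against 10.30 to 10.76. Ctla2a encodes a cysteine protease inhibitor with a near-identical copy, so its values are uncertain, and Kpna2 encodes an importin of nuclear transport.

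Mcam on the ACDiEKO arrays was 14.44, 14.38, 13.75, 14.41 and 13.12, against 12.69, 10.89, 10.87 and 10.52 on control arrays. The groups did not overlap, but the gap between the lowest ACDiEKO sample and control 1 was only 0.43, against 1.81 for Emcn. The means were 13.92 ± 0.62 in ACDiEKO and 11.25 ± 0.98 in control (SD, n = 4 and 4), a difference of 2.68, with a larger one in size for 0.516% of tested genes. In the order of differences it lay between Gem at 2.68 and Edn1 at 2.67. Genes among those most like it in profile were Vcl, which encodes the focal adhesion protein vinculin, Ddah1, which encodes an enzyme that degrades methylated arginines, and Edn1, the gene of endothelin-1.

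Control 1 was high for both genes. Emcn was 12.69 there, 2.18 above the mean of the other 3 controls, and Mcam was 12.69, 1.93 above. Over 871 genes that passed the test with a difference of at least 1, control 1 lay a median of 7.97% of the way to the ACDiEKO mean, and control 2, 3 and 4 lay at 1.49%, -7.57% and -5.44%. Those 871 genes passed limma on these same arrays, which favours genes whose controls lie close together. Without control 1 the difference was 4.27 for Emcn and 3.16 for Mcam. On the scale of those percentages, control 1 lay 2.18 of 4.27 of the way for Emcn and 1.93 of 3.16 for Mcam.

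**Figure D1:**
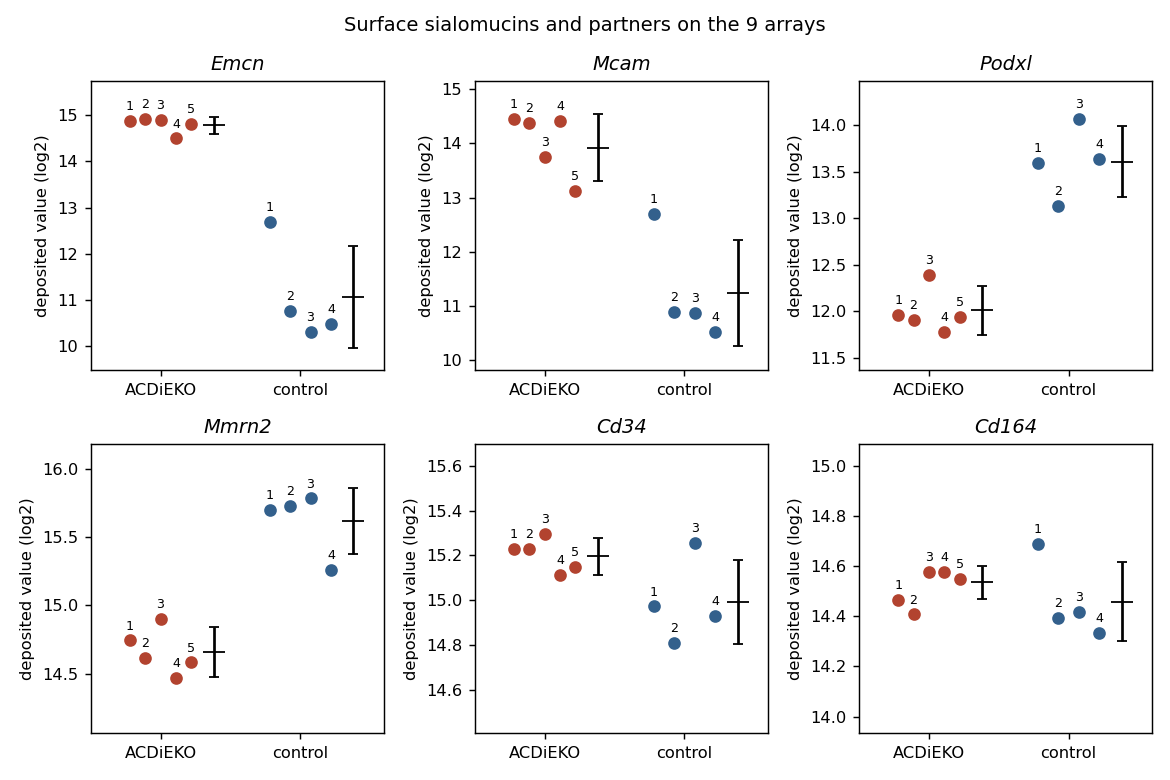
Deposited log2 values of the 6 genes on each array (points, numbered by replicate, ACDiEKO left and control right), with the mean and SD over 4 samples a group beside them. Emcn and Mcam lie higher in ACDiEKO with control 1 above the other controls, Podxl and Mmrn2 lie lower, and the groups overlap for Cd34 and Cd164.

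Podxl on the ACDiEKO arrays was 11.96, 11.91, 12.39, 11.78 and 11.94, against 13.60, 13.13, 14.06 and 13.63 on control arrays. Every ACDiEKO array lay below every control, by at least 0.74. The means were 12.01 ± 0.27 in ACDiEKO and 13.61 ± 0.38 in control (SD, n = 4 and 4), a difference of -1.60, with a larger one in size for 2.22% of tested genes. Control 1 was at the level of the other controls for this gene, with a difference of -0.01 from their mean of 13.61. Podxl lay between Cdc14a at -1.59 and Clec3b at -1.60 in the order of differences.

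The named genes most like Podxl in profile were Syt7 and Nxn, with root mean square differences of 0.104 and 0.147, then Trerf1 at 0.155 and Asap2 at 0.162. Syt7 encodes a calcium sensor of membrane fusion, Nxn encodes nucleoredoxin, and their differences were -1.50 and -1.52.

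Mmrn2 on the ACDiEKO arrays was 14.74, 14.61, 14.90, 14.47 and 14.58, against 15.70, 15.73, 15.78 and 15.26 on control arrays. The ACDiEKO arrays all lay lower, and control 4 was the lowest control. The means were 14.66 ± 0.18 in ACDiEKO and 15.62 ± 0.24 in control (SD, n = 4 and 4), a difference of -0.96, with a larger one in size for 6.46% of tested genes.

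Cd34 on the ACDiEKO arrays was 15.23, 15.23, 15.30, 15.11 and 15.15, against 14.97, 14.81, 15.26 and 14.93 on control arrays. Control 3 lay within the ACDiEKO range, so the groups overlapped. The means were 15.20 ± 0.08 in ACDiEKO and 14.99 ± 0.19 in control (SD, n = 4 and 4), a difference of 0.20 that was exceeded in size by 46% of tested genes.

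Cd164 on the ACDiEKO arrays was 14.47, 14.41, 14.58, 14.58 and 14.55, against 14.69, 14.39, 14.42 and 14.33 on control arrays. The highest array of all was control 1, so the groups overlapped. The means were 14.53 ± 0.07 in ACDiEKO and 14.46 ± 0.16 in control (SD, n = 4 and 4), a difference of 0.08 that 74.7% of tested genes exceeded in size. Without controls 3 and 4, whose title numbers lie apart from the rest, the difference was -0.01, so no direction is given.

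**Figure D2:**
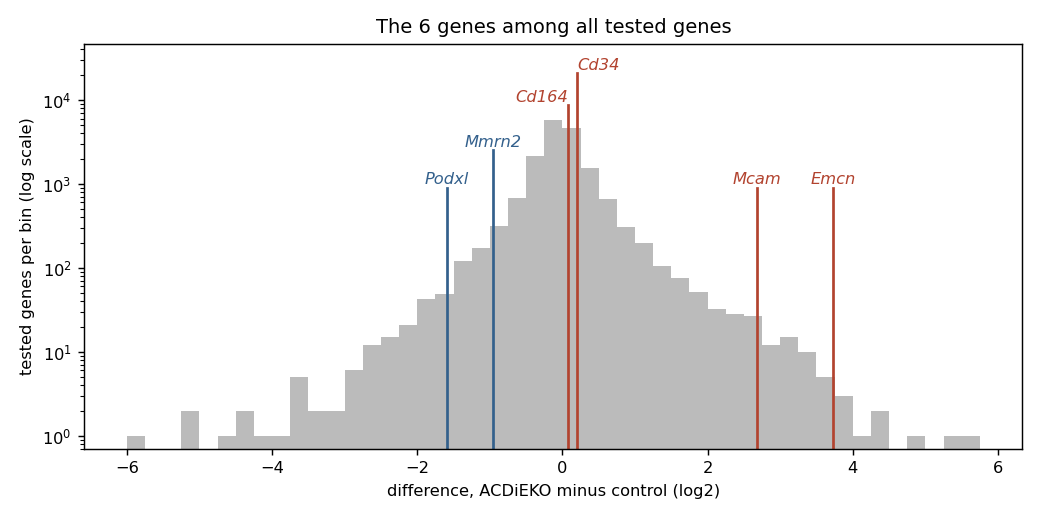
Number of tested genes (log axis) by difference between ACDiEKO and control in log2 units, with the 6 genes as lines. Emcn at 3.72 and Mcam at 2.68 stand in the thin right tail, Podxl at -1.60 and Mmrn2 at -0.96 to the left, and Cd34 and Cd164 near the middle.

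Smooth muscle markers moved in the same direction as Emcn and Mcam, and Mcam is also made by smooth muscle. Of 14 such markers 9 rose and 0 fell in limma, and their mean was 9.62 to 10.48 in ACDiEKO samples, against 8.42 to 9.29 in control samples, with control 1 the highest control. The brightest, Acta2, was 17.49 ± 0.49 in ACDiEKO and 14.30 ± 1.30 in control (SD, n = 4 and 4; limma adjusted p = 0.0112, and 0.0705 without controls 3 and 4). Myh11, the myosin of mature smooth muscle and chosen here after its values were seen, was 7.36 ± 0.40 in ACDiEKO and 7.40 ± 0.08 in control, a difference of -0.04 (limma adjusted p = 0.895). Cnn1, Myocd, Des and Mylk were also not called, with differences of -0.27, -0.15, 0.00 and 0.43. Among the 9 that rose, Tagln and Myl9 differed by 3.82 and 3.68. The part of smooth muscle RNA in the Emcn and Mcam differences was not tested.

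The part of other cell types in the differences was not tested, and their markers are given by list. Mesothelial markers, of cells that also make podocalyxin, averaged 9.14 in ACDiEKO 4, 9.09 in ACDiEKO 5 and 7.32 to 7.43 in the other ACDiEKO samples, against 6.77 to 7.68 in controls. In limma 0 of 7 passed and 2 had an unadjusted p under 0.05. The 2 brightest, Krt18 and Upk1b, differed by 1.99 and 1.72 (limma adjusted p = 0.0624 and 0.166). The defining genes Msln and Wt1 were not tested, because fewer than 4 arrays lay above the filter value. Msln was 7.40 and 7.42 in ACDiEKO 4 and 5, 6.82 in control 4 and 5.53 to 6.01 on the other arrays. Wt1 was 5.91 and 6.23 in ACDiEKO 4 and 5 and 5.44 to 5.61 on the others. Podxl was 11.78 and 11.94 in ACDiEKO 4 and 5, 12.39 in ACDiEKO 3, and 11.96 and 11.91 on arrays 1 and 2, which count as 1 sample.

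Markers of adventitial fibroblasts, which also make CD34, averaged 7.63 to 8.38 in ACDiEKO and 8.22 to 8.42 in control. Of 8 tested 0 rose and 2 fell; Pi16 was 8.16 ± 0.96 in ACDiEKO and 10.56 ± 0.25 in control (SD, n = 4 and 4; limma adjusted p = 0.00912, and 0.0732 without controls 3 and 4), while Dcn differed by 1.20 (0.064). Markers of leukocytes, which also make endolyn, averaged 6.94 to 8.96 in ACDiEKO and 6.65 to 7.21 in control, the highest being ACDiEKO 5, with 0 of 8 passing in limma and 0 at an unadjusted p under 0.05. Of 8 pericyte markers 3 were bright enough to be tested, and 1 of them, Pdgfrb, fell. In limma 0 of 5 platelet, 0 of 2 erythrocyte and 0 of 7 fat markers passed, with 1, 0 and 0 at an unadjusted p under 0.05.

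**Figure D3:**
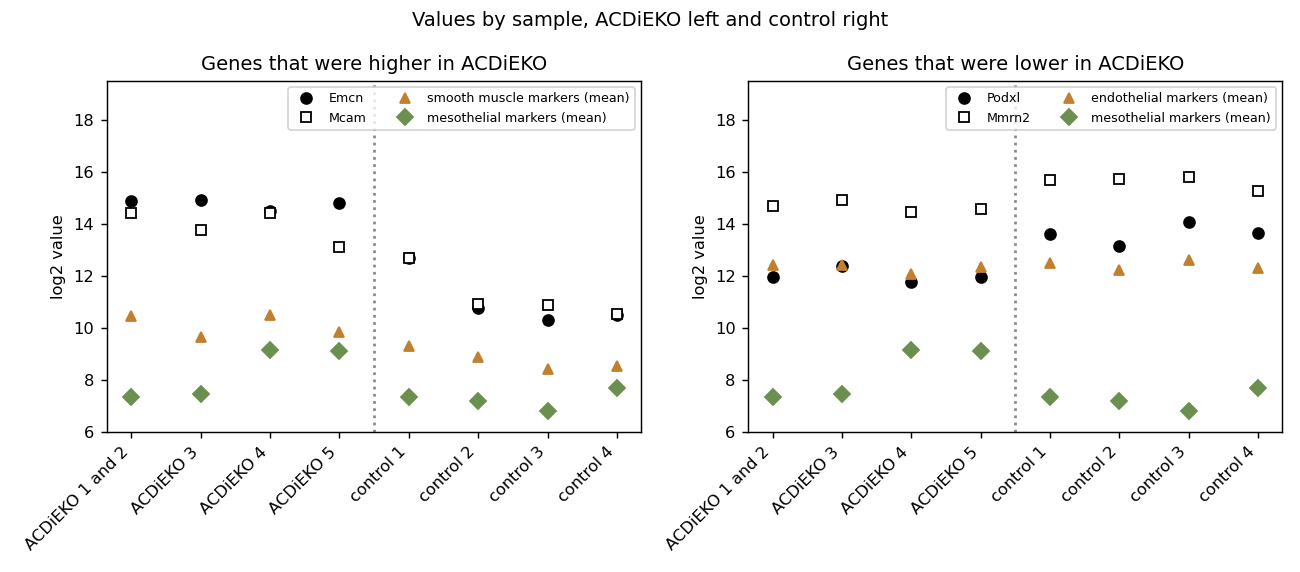
Values by sample (ACDiEKO left of the dotted line, control right) for Emcn and Mcam with the mean of smooth muscle and mesothelial markers, and for Podxl and Mmrn2 with the mean of endothelial and mesothelial markers. The smooth muscle mean is higher in every ACDiEKO sample than in any control, and mesothelial means are highest in ACDiEKO 4 and 5.

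Genes of the same pathways were taken from lists and tested in one limma fit over all 17039 genes. In that fit 8.56% of genes were higher and 7.11% were lower in ACDiEKO at an adjusted p under 0.05, which is 1458 and 1212 genes. With arrays centred on their medians these were 1837 and 952, and with quantile normalization 1968 and 1040. Over the 12 pathway lists, 133 genes were tested, of which 18 rose and 25 fell. The lists were chosen with earlier results of these data known, so their share of calls is no evidence about the pathways. The median difference over all tested genes was -0.03.

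Cytoplasmic partners split in both directions. Of 10 genes tested 1 rose and 2 fell, with a median difference of -0.04. Slc9a3r2 encodes NHERF2, an adaptor that links podocalyxin to ezrin, and its values were 11.06, 10.99, 12.74, 10.91 and 12.17 on ACDiEKO arrays, against 14.46, 13.74, 14.47 and 14.40 on control arrays. All ACDiEKO arrays lay lower, a difference of -2.56 (SE 0.42; limma adjusted p = 0.00641, and 0.0722 without controls 3 and 4). Msn, which encodes moesin, the ERM protein prominent in endothelium, was 15.28 ± 0.32 in ACDiEKO and 13.86 ± 0.23 in control (SD, n = 4 and 4), and rose by 1.42 (limma adjusted p = 0.00235). Sptbn1, a spectrin of the membrane skeleton and the third called gene, was 14.02 ± 0.13 in ACDiEKO and 14.94 ± 0.15 in control (limma adjusted p = 0.00137). Ezr and Rdx, the other ERM genes, differed by -0.40 and -0.17 (limma adjusted p = 0.128 and 0.319).

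Of 14 tested enzymes that build mucin-type O-glycans, 2 rose and 1 fell, with a median difference of 0.24. Galnt1, which adds the first sugar to serine or threonine, was 10.09 ± 0.14 in ACDiEKO and 9.29 ± 0.31 in control (SD, n = 4 and 4; limma adjusted p = 0.0115). Gcnt2, which makes branched chains, rose by 0.88 (limma adjusted p = 0.0192). Its call ended in 3 of 8 fits that left out a sample, up to 0.0551 without control 4, and without controls 3 and 4 (0.0573). Galnt7 fell by 0.40 (limma adjusted p = 0.0497, and up to 0.11 when a sample was left out, the highest without control 3, and 0.229 without controls 3 and 4), a call that also ended with centred arrays (0.109) and with quantile normalization (0.0565). The core 1 synthase gene C1galt1 differed by 0.14 (limma adjusted p = 0.269) and B4galt1, the brightest of the list, which adds galactose, by 0.36 (0.1).

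Genes of sialic acid handling moved both ways. Of 17 tested 2 rose and 3 fell, with a median difference of 0.00. St6galnac2, a sialyltransferase of O-glycans, was 7.06, 7.11, 7.61, 7.30 and 7.50 on ACDiEKO arrays, against 8.68, 8.30, 8.91 and 8.99 on control arrays. All ACDiEKO arrays lay lower, a difference of -1.35 (SE 0.17; limma adjusted p = 0.0026). St3gal5, the synthase of the glycolipid GM3, was 12.59 ± 0.24 in ACDiEKO and 11.41 ± 0.27 in control (SD, n = 4 and 4; limma adjusted p = 0.0034). St6galnac3, another sialyltransferase, rose by 1.27 (limma adjusted p = 0.0142). St3gal6, which caps galactose with sialic acid, fell by 0.63 (limma adjusted p = 0.013, and 0.0881 without controls 3 and 4). Cmas, which activates sialic acid for transfer, fell by 0.79 (limma adjusted p = 0.0339, up to 0.09 when a sample was left out, the highest without ACDiEKO 4, and 0.207 without controls 3 and 4). St3gal1, which caps core 1 O-glycans and was the brightest of the list, differed by -0.13 (0.384). Of 9 genes of fucose and sulfate transfer 0 passed in limma and 2 had an unadjusted p under 0.05, and Gmds, the brightest, differed by -0.24 (adjusted p = 0.114).

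**Figure D4:**
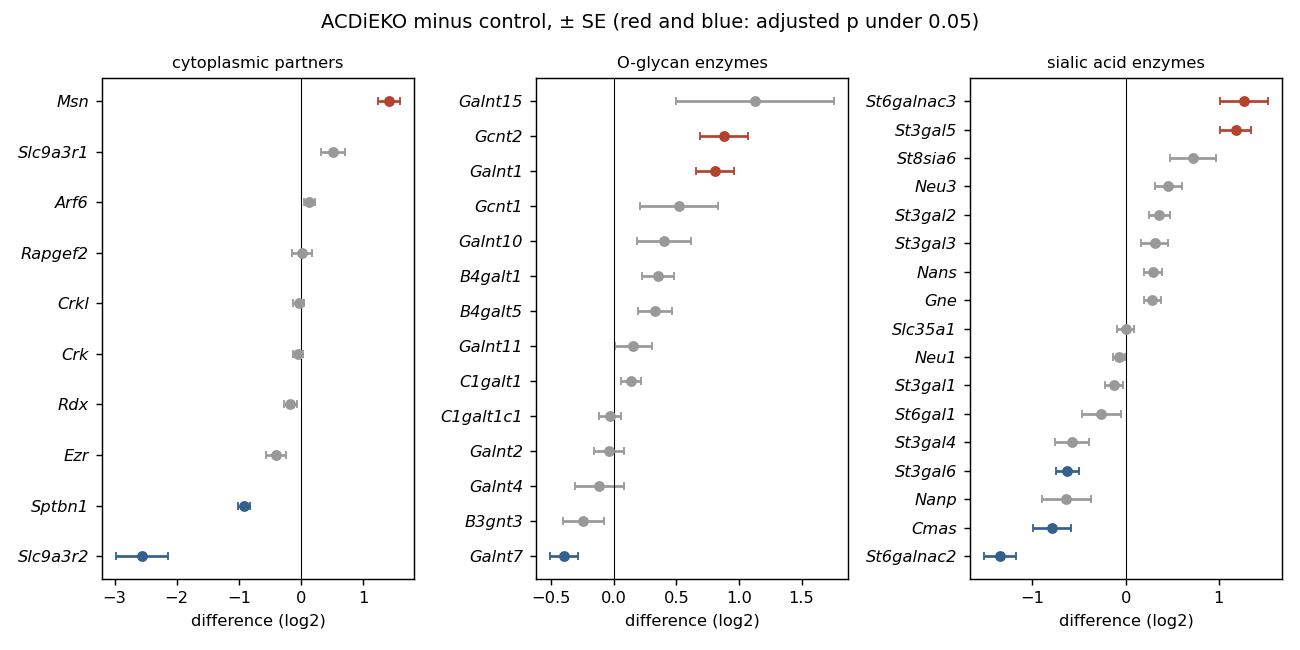
Differences (ACDiEKO minus control, log2 units, points, with SE as bars) of cytoplasmic partners, O-glycan enzymes and sialic acid enzymes, coloured where the limma adjusted p was under 0.05. Slc9a3r2 falls furthest at -2.56 and Msn rises by 1.42, and the sialic acid panel has 2 rising and 3 falling genes.

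Both measured selectins, which bind sialylated ligands, were higher. Sele was 13.53 ± 1.71 in ACDiEKO and 8.08 ± 1.15 in control (SD, n = 4 and 4), a difference of 5.44 (limma adjusted p = 0.00654, and 0.0688 without controls 3 and 4). Selp was 14.58 ± 0.20 in ACDiEKO and 13.60 ± 0.40 in control, a difference of 0.98 (limma adjusted p = 0.015). Of 15 other surface mucin-type genes tested 1 rose and 1 fell: Tmem123 by 0.85 (limma adjusted p = 0.0363, and up to 0.0917 when a sample was left out) and Cd24a by -0.73 (0.0464, and up to 0.107), the highest for each without ACDiEKO 4. Without controls 3 and 4 these were 0.209 for Tmem123 and 0.139 for Cd24a, and the Cd24a call also ended with centred arrays (0.0558) and with quantile normalization (0.0646). Podxl2, a relative of podocalyxin, differed by -0.01 (adjusted p = 0.874).

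Of the 6 tested partners and relatives of multimerin-2, 1 rose and 0 fell. Cd93, a receptor for multimerin-2, was 15.68 ± 0.30 in ACDiEKO and 15.01 ± 0.27 in control (SD, n = 4 and 4), while Mmrn2 was lower. It rose by 0.67 (limma adjusted p = 0.0406), a call lost in 6 of 8 fits that left out a sample, with 0.0988 without control 4. It also ended without controls 3 and 4 (0.201) and with quantile normalization (0.055). Clec14a, another receptor, differed by -0.39 (adjusted p = 0.211).

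Of 11 tested genes listed as partners of CD146, 3 rose and 2 fell, with a median of 0.49. Nrg1, an EGF-family ligand gene, was 9.58, 9.51, 9.36, 8.77 and 8.94 on ACDiEKO arrays, against 6.59, 6.19, 6.13 and 6.24 on control arrays. The groups lay far apart, with a difference of 2.86 (SE 0.19; limma adjusted p = 0.000333). Control values of Nrg1 lay close to the filter value of 6.03. Whether its product binds CD146 is not given in the sources used here. Lgals1, which encodes galectin-1, rose by 1.79 (limma adjusted p = 0.00244). Kdr, the VEGF receptor gene, rose by 0.96 (limma adjusted p = 0.033), a call lost in 7 of 8 fits that left out a sample. The highest adjusted p for Kdr was 0.0832, without ACDiEKO 1 and 2. Pdgfrb, which encodes a mural cell receptor, fell by 1.31 (limma adjusted p = 0.0081), and the kinase gene Fyn fell by 0.69 (0.0122, and 0.0951 without controls 3 and 4).

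Other immunoglobulin-superfamily adhesion genes of endothelium went the opposite way to Mcam where they were called. Of 15 tested 0 rose and 6 fell, with a median of -0.37. L1cam, a neural and vascular adhesion gene, was 8.21 ± 0.11 in ACDiEKO and 9.70 ± 0.38 in control (SD, n = 4 and 4; limma adjusted p = 0.00202). Icam2, Bcam, Cd47 and Pecam1 fell by 0.58, 0.80, 0.41 and 0.37, with limma adjusted p of 0.0108, 0.0166, 0.0172 and 0.0185, which without controls 3 and 4 became 0.082, 0.0863, 0.0865 and 0.0845. Pecam1 also passed no longer without ACDiEKO 1 and 2 (0.0539) or with quantile normalization (0.0668), and Cd47 not without ACDiEKO 4 (0.0528). Vcam1 differed by 0.35 (adjusted p = 0.102).

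**Figure D5:**
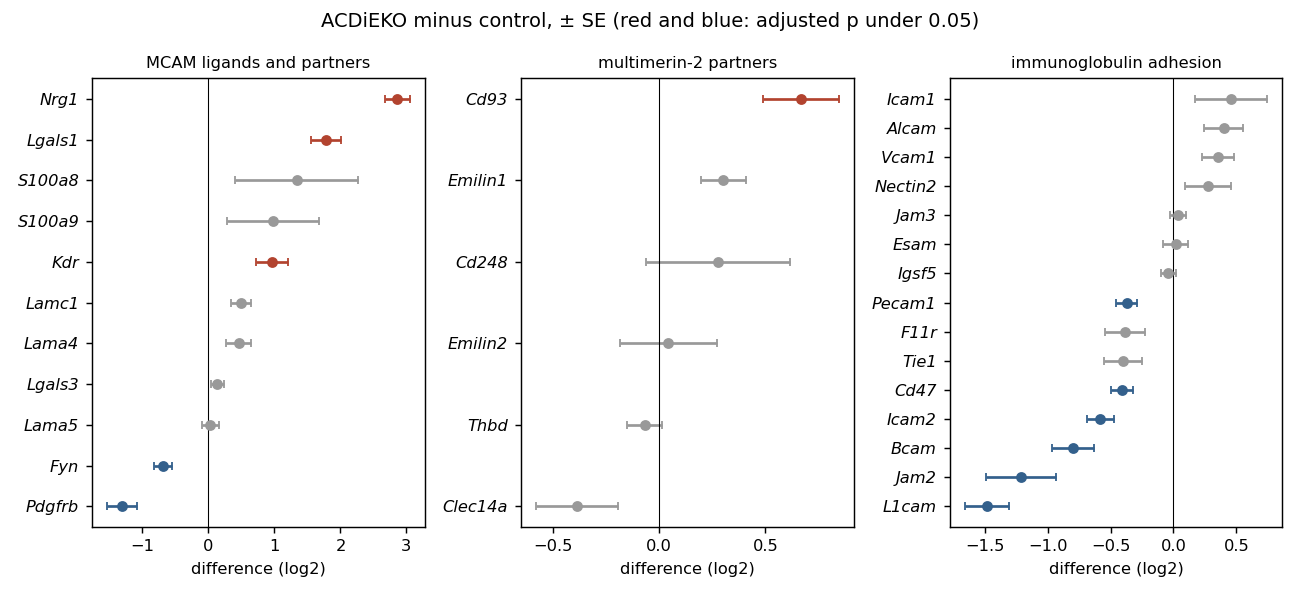
Differences (ACDiEKO minus control, log2 units, points, with SE as bars) of genes listed as CD146 partners, multimerin-2 partners and immunoglobulin adhesion genes, coloured where the limma adjusted p was under 0.05. Nrg1 rises by 2.86, and every coloured adhesion gene of the right panel is lower.

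Vessel bed genes were counted because endomucin is typical of capillaries and veins and CD34 of tip cells, the leading cells of a sprout. Of 12 capillary and venous genes 2 rose and 2 fell. Tmem252 and Selp rose by 2.33 and 0.98, and Slco2a1, a prostaglandin transporter gene, and Ephb4, a venous receptor gene, fell by 1.44 and 0.73 (limma adjusted p = 0.00293, 0.015, 0.00285 and 0.00552). Vwf, the gene of von Willebrand factor and the brightest of the list, differed by -0.19 (limma adjusted p = 0.294), and Plvap, which marks fenestrated endothelium, by -1.09 (0.0818).

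Of 14 arterial genes 0 rose and 7 fell, with a median of -0.70. The Notch ligand gene Dll1 fell by 2.80 (limma adjusted p = 0.00207). Stmn2, a microtubule regulator gene, fell by 2.74, Bmx, a kinase gene, by 2.14 and Epas1, the HIF-2 alpha gene, by 0.83 (limma adjusted p = 0.000643, 0.00293 and 0.00231), and Gja5, the connexin 40 gene, fell by 2.57 (0.00842, and 0.0787 without controls 3 and 4). Of 10 tip cell genes tested 5 rose and 1 fell, with a median of 1.02, and Apln, Esm1, Cxcr4 and Nid2 did not pass the filter. The gene that fell was Kcne3, with a difference of -2.29 (limma adjusted p = 0.0332), and its groups met at 7.56. Plaur, the urokinase receptor gene, rose by 2.14 and Pdgfb by 3.05 (limma adjusted p = 0.000468 and 0.00244). Pgf, a VEGF-family ligand gene, rose by 2.04 (0.00727), Adm, the adrenomedullin gene, by 0.95 (0.00676) and Unc5b, a netrin receptor gene, by 1.80 (0.0195). Those 3 calls ended without controls 3 and 4, at 0.0585, 0.0516 and 0.132. The Unc5b call also ended in 3 of 8 fits that left out a sample, up to 0.058 without ACDiEKO 4. Adm, 1 of the 5 that rose, lay above the filter value of 6.03 only on ACDiEKO arrays, with controls at 4.88 to 5.25. It was tested only through the group where it was higher, so its p-value is not counted as evidence. The count of 5, the median of 1.02 and the 18 that rose over all pathway lists include Adm.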

How the data were processed

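Per the submitters' processing notes, the authors made the deposited log2 values with RMA, a background correction with between-array normalization and probe summary per transcript cluster; the version and any further scaling are not given in the sources used here. Of 72688 features, 6732 array controls were left out. Of the 65956 clusters, 30604 had 1 symbol, 2146 several and 33206 none; 827 symbols were updated to the GRCm38.p6 RefSeq names. The brightest cluster per symbol gave 30142 genes, and 17039 had at least 4 arrays above the median of all cluster values (6.03). Array number limits the precision.

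Groups were compared in limma 3.58.1 (under R 4.3.3; eBayes on lmFit, difference of ACDiEKO less control, Benjamini-Hochberg adjustment at 0.05 over all tested genes, two-sided), after ACDiEKO replicates 1 and 2 were averaged. The 6 genes and all gene lists were chosen with earlier results of these data known. The rule named the 6 genes, their neighbours in the order of differences and the 4 most like Emcn, Podxl and Mcam. Per pathway list it named up to 5 genes past the threshold plus the brightest other, and per cell list the 2 brightest markers. Some of these neighbours and cell markers are not reported here. Myh11, Ezr, Rdx, C1galt1, Podxl2, Clec14a, Vcam1, Plvap, Kcne3, Apln, Esm1, Cxcr4, Nid2, Msln and Wt1 were chosen after their values were seen. The same holds for Cnn1, Myocd, Des and Mylk, the other smooth muscle markers not called. Of the genes most like Mcam, 1 is not reported here. The titles give 2 controls the number 3, and the second is control 4 here. Correlations of same-numbered arrays' deviations from group means were -0.00451, -0.145, 0.0363 and 0.041, so no pairing was assumed. Motifs were searched on both strands in RefSeq promoter sequences with Python 3.11.15. The steps were tested on simulated data. Alternatives covered the filter, scaling, cluster per gene, variance model, array weights, near-identical arrays, a replicate block, left-out samples and thresholds.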

Additional observations from a re-analysis of the deposited data

Results flagged for a closer look

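In 9 of 152 groups of 4 samples, 1 sample stood far from the other 3 by Dixon's criterion, which chance meets in about 5% of groups. Among the 6 genes this was 1 of 12 groups: Mmrn2 was 15.26 in control 4, against 15.70 to 15.78 in the other controls. Control 1 did not meet the criterion for Emcn or Mcam. It was 12.69 for both, against at most 10.76 and 10.89 in the other controls. Sptbn1 was 13.83 in ACDiEKO 4, against 14.07 to 14.11 in the other ACDiEKO samples. Slc9a3r2 was 13.74 in control 2, against 14.40 to 14.47 in the others. Gmds, an enzyme of fucose synthesis, was 9.77 in control 2, against 10.09 to 10.11. Cd47 was 14.35 in control 4, against 14.45 to 14.46. Bmx, an arterial kinase gene, was 14.41 in control 1, against 14.66 to 14.70. Gja5 was 15.74 in control 3, against 15.21 to 15.27. Gp9, a platelet gene, was 7.82 in ACDiEKO 5, against 7.73 to 7.74. Ucp1, a brown fat gene, was 7.53 in ACDiEKO 4, against 12.42 to 13.33 in the other ACDiEKO samples.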

How the results depend on the processing

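Over 19 alternatives the differences ranged from 3.05 to 4.27 for Emcn, 2.13 to 3.16 for Mcam, -1.75 to -1.35 for Podxl, -1.08 to -0.87 for Mmrn2, 0.14 to 0.31 for Cd34 and -0.01 to 0.15 for Cd164. Without the 2 controls whose title numbers lie apart (3 and 4), 1104 genes were called in place of 2670, 22 pathway genes in place of 43, and 6139 genes did not overlap in place of 3834; that fit has fewer samples. At adjusted thresholds of 0.01 and 0.10, 1020 and 4047 genes were called. Leaving out 1 sample gave 1647 calls (without ACDiEKO 4) to 2441. With the replicate block, a fit of 9 arrays, 2320 genes and 40 pathway genes were called and Emcn differed by 3.71, and the calls of Tmem123, Cd24a, Galnt7, Cd47, Pecam1 and Pi16 ended (adjusted p 0.0513 to 0.105). With no filter on dim genes, those of Tmem123, Cd24a, Galnt7, Cmas, Cd93 and Kdr ended (0.0733 to 0.095), a fit that tests more genes. The scale of the deposited values limits differences to log2 units, and 4 samples a group limit the precision.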
